A study of Rattus norvegicus with 54 samples.

Results

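The Hox, Sox, Fox, Meis and Pbx genes and those of the sine oculis homeobox family encode transcription factors that set position and cell identity in the embryo. They were taken here as every gene symbol of these families in the count tables of a rat heart study, by name alone, which gave 115 members of 40319 genes: 38 Hox, 19 Sox, 45 Fox, 3 Meis and 4 Pbx genes and 6 sine oculis homeobox genes, such as Six5. The study asked how a bi-level sheet of human smooth muscle cells and endothelial progenitor cells, laid on the heart after an infarct, changes the host tissue. Animals were female athymic F344/NJcl-rnu/rnu rats aged 8 weeks, a strain without a working thymus through a defect in the Foxn1 gene. The sham group was not ligated, the untreated MI group had the left anterior descending artery ligated for good, and the cell sheet-treated group had the same ligation and then the sheet on the epicardium. Poly(A) RNA was sequenced 1 week after surgery from the infarct, border and remote zones of the left ventricle, so that 18 animals gave 54 libraries in 9 groups (n = 6 in each). In sham animals a zone is the matching position in an uninjured wall. Replicates are labelled as technical, although the study describes separate hearts. If they were technical, the p-values below would measure only that spread.

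Hox proteins are expressed in overlapping domains along the body axis, in the order of their genes in 4 clusters, and they bind DNA together with Pbx and Meis proteins, which belong to the same TALE class of homeodomain factors. Proteins of the sine oculis family act with Eya coactivators in muscle and sensory organs. Sox proteins bend DNA through a single HMG domain and fix the fate of cartilage, neural crest and endothelium, and Fox (forkhead) proteins include the insulin-regulated Foxo group, the vascular Foxc and Foxf genes and the regulatory T cell factor Foxp3. In adult tissue, fibroblasts and other stromal cells keep a Hox code of the place they came from.

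Libraries held 12699204 to 23397754 counts on genes. Levels are counts-per-million of the counts on genes (CPM) with TMM scaling, which corrects for composition, and they are compared between samples of a single gene only, since transcript length was not used. Where a group is given by 3 values, they are its lowest, median and highest animal. Fold changes are log2 values ± SE from edgeR's quasi-likelihood test within a zone, with p-values adjusted over all genes tested, and "rose" or "fell" is used for adjusted p under 0.05. Some libraries stood apart before any member was compared. Sham replicate 5 held 93.9 to 124 CPM of the T cell receptor component Cd3e, against 0 to 7.35 CPM in the other 51 libraries of this athymic strain. Its summed macrophage markers were 7045 to 12300 CPM, and its summed cardiomyocyte markers 21520 to 33410 CPM against 58970 to 74340 CPM in the other sham libraries. Without it, 37, 36 and 22 members passed for untreated MI against sham in the infarct, border and remote zones, where 64.8%, 60.8% and 46.5% of all genes passed. Cell sheet border replicate 1 held a summed cardiomyocyte marker level of 164 CPM, against 8607 to 27580 CPM in the other 5 animals of its group. Cell sheet border replicate 4 and untreated MI border replicate 3 held 188 and 184 CPM of lung markers, against at most 9.1 CPM in the other border libraries. Cell sheet infarct replicate 6 held 62.4 CPM of lung markers, against at most 2.58 CPM in the other 5 animals of its group. Its cardiomyocyte markers were 32110 CPM, against at most 14040 CPM in those animals. Cell sheet remote replicate 1 held 3634 CPM of myofibroblast markers, against at most 512 CPM in the other 5 animals of its group. Only the rat genome was used for alignment although the sheet was of human cells, and the share of human RNA was not tested.

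Of the 115 members, 44 had enough counts for the test in all 9 comparisons, 21 in some and 50 in none, and 11 of these had no count in any library. Among the members tested, untreated MI moved 31 of 54 in the infarct zone (19 rose, 12 fell), where 49.9% of all genes tested passed. In the border zone it moved 27 of 54 (18 rose, 9 fell), against 41.7% of all genes, and in the remote zone 17 of 48 (7 rose, 10 fell), against 25.8%. Against untreated MI, the cell sheet moved 16 of 62 members in the border zone (15 rose, 1 fell), against 18% of all genes (8.47% higher). Without cell sheet replicate 2 it was 8 members and without cell sheet replicate 3 it was 25, and without untreated MI replicate 4 or 6 or cell sheet replicate 6 it was 10. In the remote zone it moved 5 of 48 (4 rose, 1 fell), against 17.1%. Without cell sheet remote replicate 1 it was 21 (10 rose, 11 fell), where 41.6% of all genes passed. In the infarct zone edgeR called 0 of 61 members and 0% of all genes, with 12 members and 1341 genes (8.28%) at an unadjusted p under 0.05. DESeq2 also called 0 members there. Shares of members near the shares of all genes are no result about these families. Untreated MI and sham animals did not overlap for 14.1%, 11.7% and 8.3% of all genes tested in the infarct, border and remote zones. For the cell sheet against untreated MI the shares were 0.747%, 9.64% and 4.96%. Each lack of overlap given below is to be read against these shares.

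**Figure D1:**
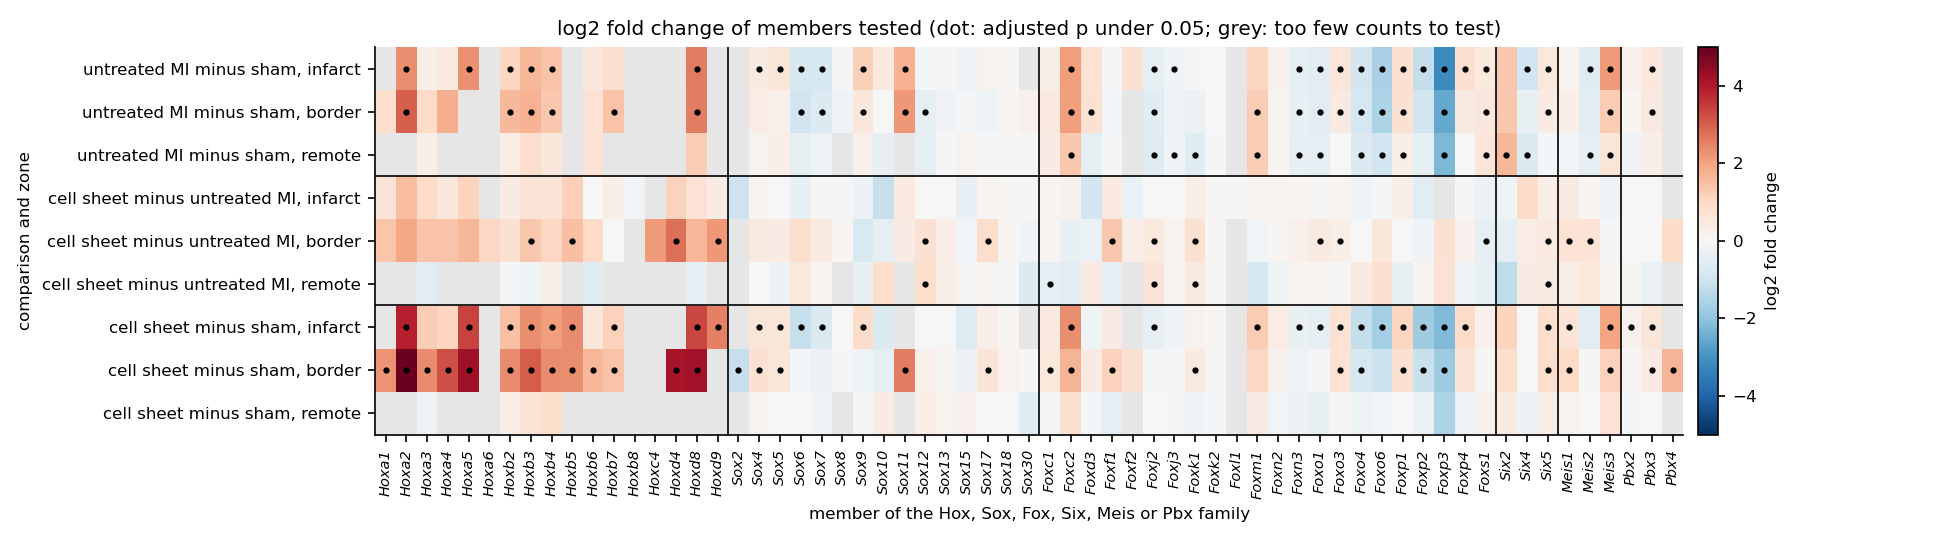
Log2 fold change (colour) of members tested (columns, ordered by family) in the 9 comparisons of treatment and zone (rows); a dot marks an adjusted p under 0.05 and grey a member with too few counts. Dots for the cell sheet against untreated MI stand in the border row and the remote row (5 members), and none stands in the infarct row.

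Hox counts came from paralogs 1 to 9, with almost none from the posterior end of the clusters. These are shares of counts that were not corrected for transcript length. Paralogs 1 to 5, 15 genes, held 71.6% of all Hox counts, paralogs 6 to 9, 12 genes, held 28.2%, and paralogs 10 to 13, 11 genes, held 0.192%. By cluster, Hoxb genes held 50.1%, Hoxa 28.4%, Hoxd 17.6% and Hoxc 3.91%. Hoxb2, Hoxb3, Hoxb4, Hoxb6 and Hoxd8 had a count in all 54 libraries, while 5 of the 38 genes had none in any library. Hox genes overlap antisense and neighbouring transcripts, and since the strand setting of the counting was not given in the sources used here, reads of such partners cannot be told apart from their own.

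**Figure D2:**
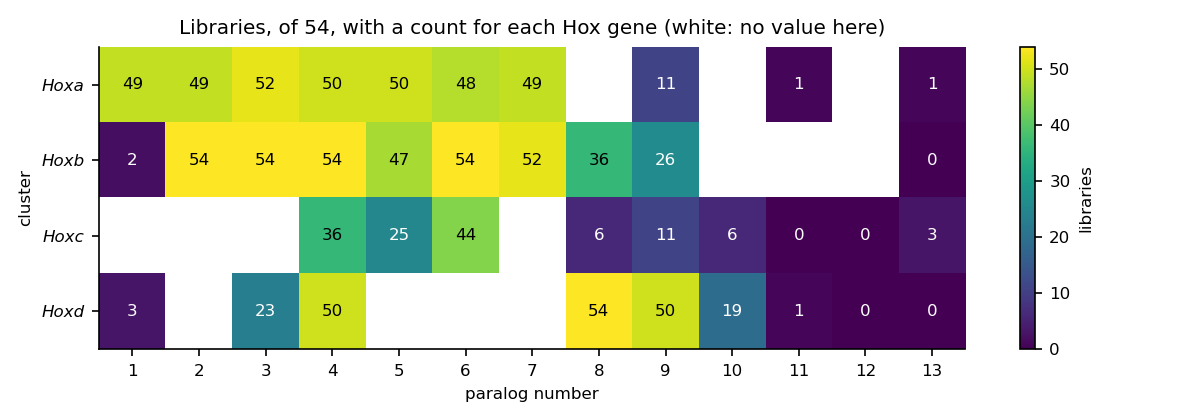
Number of the 54 libraries with at least a single count (colour and printed number) for each Hox gene, by cluster (rows) and paralog number (columns); white cells carry no value. Hoxb2, Hoxb3, Hoxb4, Hoxb6 and Hoxd8 reach 54 libraries, and no gene of paralogs 10 to 13 exceeds 19.

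The 250 bases before the start site are shown for Hox genes on which the comparisons below turn: Hoxa2 and Hoxd8, whose untreated MI and sham animals did not overlap in the infarct zone, and Hoxd4 and Hoxd9, which rose with the cell sheet in the border zone. They are RefSeq sequence of GRCr8, another assembly than that of the counts, at chr4:82595693-82595942 (minus strand) for Hoxa2 and, on the plus strand, at chr3:80021636-80021885 for Hoxd4, chr3:80014973-80015222 for Hoxd8 and chr3:80007756-80008005 for Hoxd9. Capitals mark matches, on either strand, to a Pbx-Hox motif (TGATNNAT), a Meis motif (TGACAG) or a CCAAT box.
Hoxa2: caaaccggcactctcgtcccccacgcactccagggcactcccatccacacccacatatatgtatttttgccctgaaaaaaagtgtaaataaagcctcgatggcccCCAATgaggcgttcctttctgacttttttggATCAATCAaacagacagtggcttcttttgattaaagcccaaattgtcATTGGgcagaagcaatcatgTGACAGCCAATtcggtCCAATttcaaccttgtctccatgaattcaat
Hoxd4: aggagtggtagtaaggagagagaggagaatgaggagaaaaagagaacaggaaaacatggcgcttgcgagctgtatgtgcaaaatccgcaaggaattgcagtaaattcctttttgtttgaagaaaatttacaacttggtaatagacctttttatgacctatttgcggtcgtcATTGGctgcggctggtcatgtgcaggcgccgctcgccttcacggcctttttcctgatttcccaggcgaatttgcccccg
Hoxd8: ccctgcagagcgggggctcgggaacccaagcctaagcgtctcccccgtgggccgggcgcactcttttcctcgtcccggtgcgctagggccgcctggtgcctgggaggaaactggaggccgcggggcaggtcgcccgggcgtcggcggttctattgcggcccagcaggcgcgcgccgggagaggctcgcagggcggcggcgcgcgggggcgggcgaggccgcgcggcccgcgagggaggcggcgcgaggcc
Hoxd9: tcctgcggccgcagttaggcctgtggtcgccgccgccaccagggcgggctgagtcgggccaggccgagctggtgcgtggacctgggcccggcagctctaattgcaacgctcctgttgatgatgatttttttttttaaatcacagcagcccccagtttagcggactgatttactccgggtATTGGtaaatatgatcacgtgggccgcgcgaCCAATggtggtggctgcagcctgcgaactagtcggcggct
Hoxa2 held a Pbx-Hox match at −114 to −107, a Meis match at −47 to −42 that abuts a CCAAT box, and 4 CCAAT boxes in all, with no overlap between motifs. Hoxd4 held 1 CCAAT box and Hoxd9 held 2, and Hoxd8 held none of these letters in this window. Over 33469 promoters of this length, 7.96% held the Pbx-Hox motif, 15.8% the Meis motif and 34% a CCAAT box. In the 19 Hox promoters at hand the shares were 15.8%, 15.8% and 57.9%. A Fox motif (GTAAACA) stood in 3.21% of all promoters, a Sox motif (ACAATG) in 11.1% and a TATA box (TATAAA) in 12.9%, against 0%, 0% and 10.5% of the Hox promoters. These matches describe letters and not bound sites.

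Untreated MI raised Hox genes in the infarct and border zones. Of the 38 members, 10 had enough counts to be tested in each of the infarct and border zones and 6 in the remote zone. Of these, 6 rose in the infarct zone (Hoxa2, Hoxa5, Hoxb2, Hoxb3, Hoxb4 and Hoxd8) and 6 in the border zone (Hoxb7 in place of Hoxa5), none fell, and none passed in the remote zone. Of all genes tested, 22.7%, 18.4% and 11.7% rose in the 3 zones. Without a filter on low counts 9 and 8 rose in the infarct and border zones. The summed Hox level was 5.86, 15.7 and 20.1 CPM in sham and 19.7, 37.1 and 52.9 CPM in untreated MI in the infarct zone, where a single untreated MI animal reached into the sham range. In the border zone it was 5.35, 13.8 and 15.6 CPM against 21.8, 29.2 and 71.8 CPM, so every untreated MI animal lay above every sham animal. In the remote zone it was 3.92, 9.98 and 18.7 CPM against 4.93, 15.7 and 24.7 CPM, and the animals overlapped.

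Hoxa2, which patterns the hindbrain and branchial neural crest, stood at 0.0875, 0.258 and 0.528 CPM in sham and 0.593, 1.3 and 3.38 CPM in untreated MI in the infarct zone. Border tissue held 0, 0.168 and 0.789 CPM and 0.881, 1.26 and 5.68 CPM. The animals did not overlap in either zone, a pattern that 14.1% of all genes tested showed in infarct and 11.7% in border tissue. In infarct tissue the default filter passed Hoxa2 only through its untreated MI animals. The separation there was therefore fixed by the filter and is no support for the rise. Log2 fold changes in these zones were 2.34 ± 0.50, adjusted p = 0.00324 and 3.00 ± 0.72, adjusted p = 0.00797. Hoxd8, from the middle of the D cluster, went from 0.343, 0.701 and 1.14 CPM to 2.27, 4.16 and 6.74 CPM in infarct tissue and from 0.335, 0.696 and 0.878 CPM to 1.73, 3.14 and 6.42 CPM in border tissue. Again no untreated MI animal fell as low as a sham animal in these zones. Its log2 fold changes were 2.61 ± 0.36, adjusted p = 0.000296 and 2.56 ± 0.41, adjusted p = 0.00112. Hoxb2, Hoxb3 and Hoxb4, neighbours in the B cluster, rose by 1.07, 1.64 and 1.42 in infarct tissue and by 1.61, 1.72 and 1.36 in border tissue, on the log2 scale. Hoxa5 rose by 2.27 ± 0.73 (adjusted p = 0.0216) in the infarct zone, a call that was lost without untreated MI replicate 4 or 6. Over the same samples the 8 summed fibroblast markers stood at 4481 to 6558 CPM in sham border tissue and at 17230 to 47880 CPM in untreated MI border tissue, and 7 of the 8 rose. In bulk tissue, more cells of a type and more RNA per cell cannot be told apart, and the part of the stromal increase in the Hox values was not tested.

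Against untreated MI, the cell sheet group had higher Hoxb3, Hoxb5, Hoxd4 and Hoxd9 in the border zone, of 16 Hox genes tested there, and no Hox gene fell. Hoxb3 had also risen after MI in that zone, and the other genes had too few counts to be tested against sham there without the sheet. Hoxd4 stood at 0.0518, 0.557 and 1.66 CPM in untreated MI and 0.437, 4.51 and 10.7 CPM in cell sheet-treated animals. Cell sheet replicates 3 and 4 lay within the untreated MI range and the other 4 above it, so the groups overlapped. Its log2 fold change was 2.75 ± 0.76, adjusted p = 0.0258. Hoxd9 stood at 0.27, 0.481 and 1.4 CPM and 0.194, 2.76 and 5.53 CPM, a log2 fold change of 2.17 ± 0.65, adjusted p = 0.0373. Hoxb3 stood at 2.14, 4.56 and 8.17 CPM and 3.59, 13.3 and 18.1 CPM, a log2 fold change of 1.34 ± 0.40, adjusted p = 0.0348. Hoxb5, involved in vascular and foregut development, stood at 0.363, 0.676 and 1.57 CPM and 0.631, 2.15 and 4.13 CPM, a log2 fold change of 1.49 ± 0.45, adjusted p = 0.0368. In all of these genes cell sheet replicate 3 was the lowest and replicate 1 the highest of the group. Hoxa2 and Hoxd8 stood at 0.388, 9 and 13.1 CPM and 1.65, 10.4 and 26.4 CPM and did not pass (log2 fold changes 1.93 ± 0.67, adjusted p = 0.0667, and 1.66 ± 0.58, adjusted p = 0.0672).

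The Hox calls of the cell sheet rested on few animals. The summed Hox level of the 6 cell sheet border samples was 158, 112, 16.6, 55.3, 87.1 and 130.3 CPM in the order of their numbers. Without replicate 3, 13 Hox genes rose and 18.5% of all genes passed, without replicate 1 a single gene did, and without replicate 2 none did, when 18.8% and 11.8% of all genes passed. In the order of their numbers, the summed mesothelial markers of the same samples were 697, 480, 48.7, 261, 273 and 589 CPM. This ranks the animals as the Hox sum does. Summed macrophage markers (5782, 2942, 1784, 2429, 2543 and 3534 CPM) and T cell markers (291, 224, 106, 136, 199 and 265 CPM) gave the same ranking. Cardiomyocyte markers ran nearly the other way (164, 21080, 27580, 21490, 20130 and 8607 CPM). Fibroblast markers were lowest in replicate 3 (27310 CPM) and highest in replicate 6 (58670 CPM). Of the 7 mesothelial markers none passed against untreated MI, of the 8 adipocyte markers, 6 tested, 3 rose, and of the 7 mural markers 5 rose. Summed mural markers were 501 to 796 CPM in untreated MI and 1181 to 1336 CPM with the sheet, without overlap. They were also apart in infarct tissue (623 to 895 against 952 to 1266 CPM) and remote tissue (588 to 756 against 1023 to 1240 CPM), where no Hox gene passed. The part of these marker lists in the Hox values was not tested.

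In the infarct zone no Hox gene passed for the cell sheet against untreated MI. Hoxa2 stood at 1.6, 3.68 and 9.64 CPM there, against 0.593, 1.3 and 3.38 CPM in untreated MI. Its log2 fold change was 1.53 ± 0.50, adjusted p = 0.497, with a 95% interval of 0.43 to 2.62. Hoxd4 (1.16 ± 0.50) and Hoxb5 (1.19 ± 0.37) also missed the threshold, with intervals of 0.08 to 2.24 and 0.39 to 1.98. In the remote zone the summed Hox level of the cell sheet group was 3.64, 9.24 and 28.8 CPM and no member passed. A test of the difference itself, the cell sheet effect in the border zone minus that in the infarct zone with the animal as a block, called 0 members by edgeR (0% of all genes), with 12 members at an unadjusted p under 0.05 (11.6% of all genes), and DESeq2 called 1 member. Border minus remote gave 0 members by edgeR (0% of all genes), 19 at an unadjusted p under 0.05 (20.4% of all genes) and 3 by DESeq2. The cell sheet effect on these genes is therefore not shown to differ between zones.

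**Figure D3:**
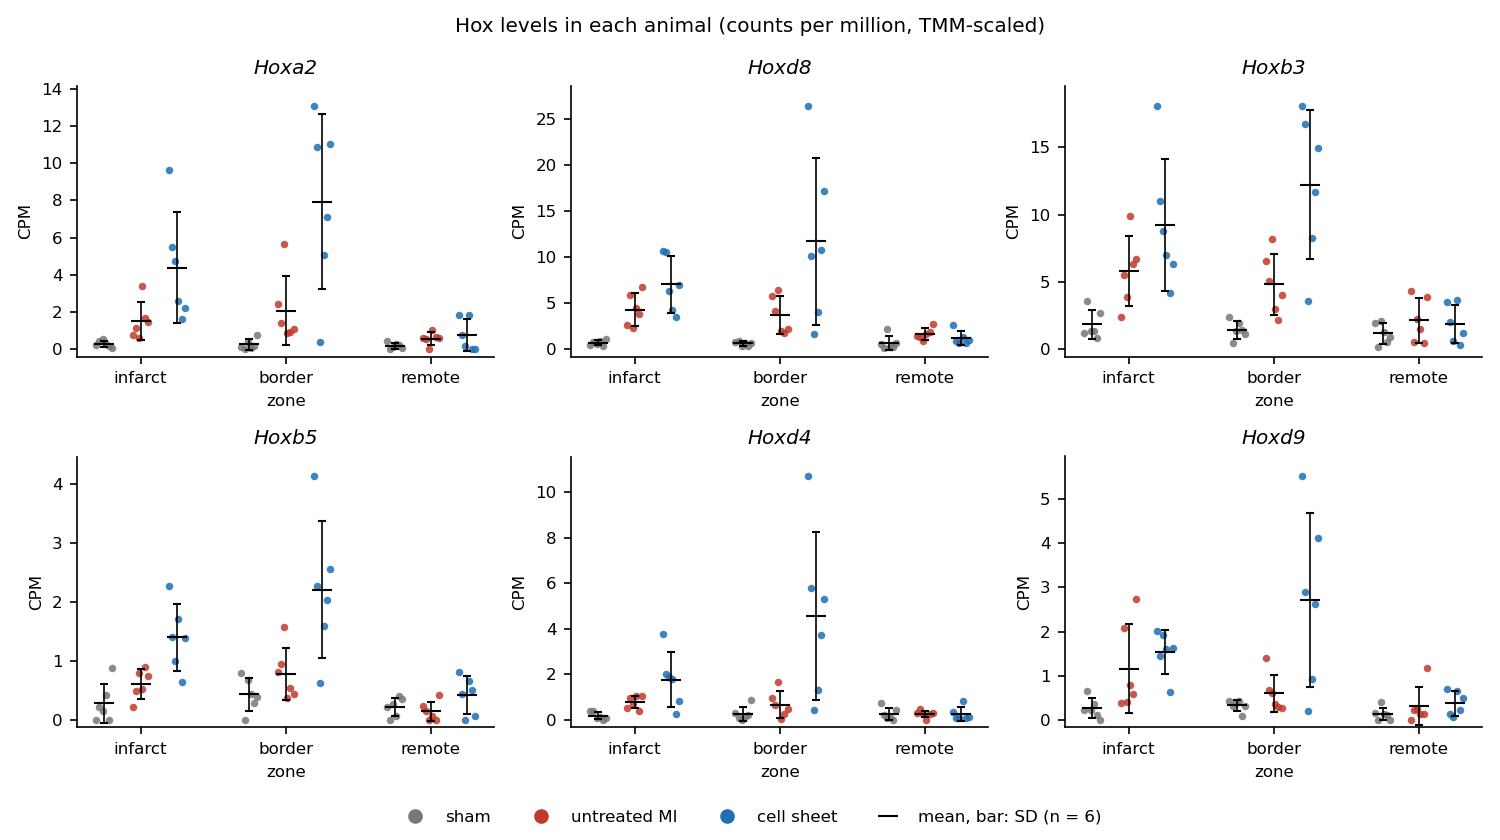
Level in CPM (vertical axis, linear) of 6 Hox genes in each animal by zone (horizontal axis) for sham (grey), untreated MI (red) and cell sheet-treated (blue) animals, with group mean and SD (n = 6). Sham animals stay at or under 3.56 CPM in all 6 genes, and in the border zone the cell sheet group spreads from 0.194 to 26.4 CPM over the 6 genes.

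Against sham, the cell sheet group showed 9 higher Hox genes of 12 tested in the infarct zone (57.9% of all genes passed, 28.6% higher). In the border zone it showed 13 of 13 tested (43.6% passed, 20.4% higher). In the remote zone no Hox gene passed, and edgeR called 1 gene of all (0.0066%) and no member. At an unadjusted p under 0.05 there were 3 members, against 10% of all genes. DESeq2 called 0 members there. This comparison shares its sham samples with that of untreated MI and its cell sheet samples with that against untreated MI. The default filter passed Hoxb5 and Hoxd9 in infarct and Hoxa5, Hoxb5 and Hoxd4 in border tissue only with the counts of cell sheet animals. In infarct tissue it passed Hoxa2 only through those animals. For these genes the filter therefore favoured a rise. Without a filter on low counts 17 Hox genes rose in each of the infarct and border zones, of 30 and 27 tested. Of all genes in those fits, 4855 of 28448 and 3392 of 28976 rose. In the border zone Hoxa5 stood at 0.0724, 0.306 and 0.71 CPM in sham and 0.097, 6.73 and 10.4 CPM with the cell sheet, and replicate 3 again lay within the sham range (log2 fold change 4.25 ± 0.80, adjusted p = 0.00132). Hoxb3 went from 0.479, 1.4 and 2.39 CPM to 3.59, 13.3 and 18.1 CPM without overlap (3.04 ± 0.44, adjusted p = 0.000223), as 19.6% of all genes did.

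Six5, a broadly expressed member of the sine oculis family that is linked to myotonic dystrophy, rose with the sheet. Border tissue held 8.42, 13.6 and 16.6 CPM in sham, 14.3, 18.1 and 19.6 CPM in untreated MI and 21.7, 24.4 and 27.9 CPM with the cell sheet. All 6 cell sheet animals lay above all untreated MI animals, as for 9.64% of all genes tested. Its log2 fold change was 0.41 ± 0.15, adjusted p = 0.0456 for untreated MI and 0.48 ± 0.10, adjusted p = 0.00545 for the cell sheet. Remote tissue held 11.5, 13 and 16.6 CPM in untreated MI and 15.9, 19 and 20.3 CPM with the cell sheet, where the groups overlapped (0.46 ± 0.11, adjusted p = 0.0184). Six4 fell after MI in the infarct zone (-0.95 ± 0.33, adjusted p = 0.0325) and in the remote zone (-0.70 ± 0.20, adjusted p = 0.0204), and Six2 rose in the remote zone (1.67 ± 0.51, adjusted p = 0.0296), where the 6 and 6 animals did not overlap, as for 8.3% of all genes tested. Six3 and Six6 had at most 1 count over all libraries. Of a list of their partners Eya and Dach and of further TALE factors, 10 genes with 9 tested, Eya1 fell in every zone (-2.75, -1.63 and -1.21). The TALE repressor Tgif2 rose in every zone (0.76, 1.02 and 0.84). In all, 2 rose and 2 fell in infarct tissue, 2 and 1 in border tissue, and 1 and 2 in remote tissue, where 49.9%, 41.7% and 25.8% of all genes passed.

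The 3 Meis genes, partners of Hox and Pbx proteins, moved in different directions after MI. Meis3 stood at 4.86, 5.93 and 7.61 CPM in sham and 9.79, 22.9 and 50.6 CPM in untreated MI in the infarct zone, with no overlap, and rose by 2.15 ± 0.34, adjusted p = 0.000623. Border animals ranged over 5.2, 6.51 and 9.23 CPM in sham and 8.29, 18.3 and 22 CPM in untreated MI, which overlapped (1.25 ± 0.28, adjusted p = 0.00569). Remote animals did not overlap (0.62 ± 0.16, adjusted p = 0.0129). Meis2 fell in the infarct zone (-0.65 ± 0.22, adjusted p = 0.0249) and the remote zone (-0.50 ± 0.13, adjusted p = 0.0149), from 31.7, 41.5 and 52.7 CPM to 23.6, 30.1 and 36.6 CPM in the latter. Meis1, which limits cardiomyocyte division after birth, did not pass in any zone after MI (0.18 ± 0.14, 0.31 ± 0.20 and -0.16 ± 0.14).

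Both Meis1 and Meis2 rose in the border zone with the cell sheet, against untreated MI. Meis1 stood at 11.1, 20.1 and 23.2 CPM in sham, 16.9, 23.3 and 33.4 CPM in untreated MI and 26.2, 37.6 and 51.5 CPM with the cell sheet. The cell sheet animals all lay above the sham animals, and overlapped those with untreated MI. Its log2 fold change against untreated MI was 0.71 ± 0.21, adjusted p = 0.0319. Meis2 stood at 12.5, 20.6 and 24.7 CPM in untreated MI and 21.8, 31.4 and 44 CPM with the sheet (0.67 ± 0.18, adjusted p = 0.0256). The Meis1 call was lost when any of 6 single animals was left out, and the Meis2 call when any of 3 was. Meis3 did not pass for the cell sheet in any zone (-0.20 ± 0.36, -0.06 ± 0.28 and 0.10 ± 0.35).

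Among the Pbx genes, Pbx3 rose after MI in the infarct and border zones (0.56 ± 0.13, adjusted p = 0.00478 and 0.45 ± 0.13, adjusted p = 0.0192) and did not change detectably with the sheet (0.04 ± 0.11, 0.00043 ± 0.10 and -0.35 ± 0.17). Pbx4 was tested in border comparisons with the cell sheet only, and rose against sham (1.71 ± 0.62, adjusted p = 0.0424).

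**Figure D4:**
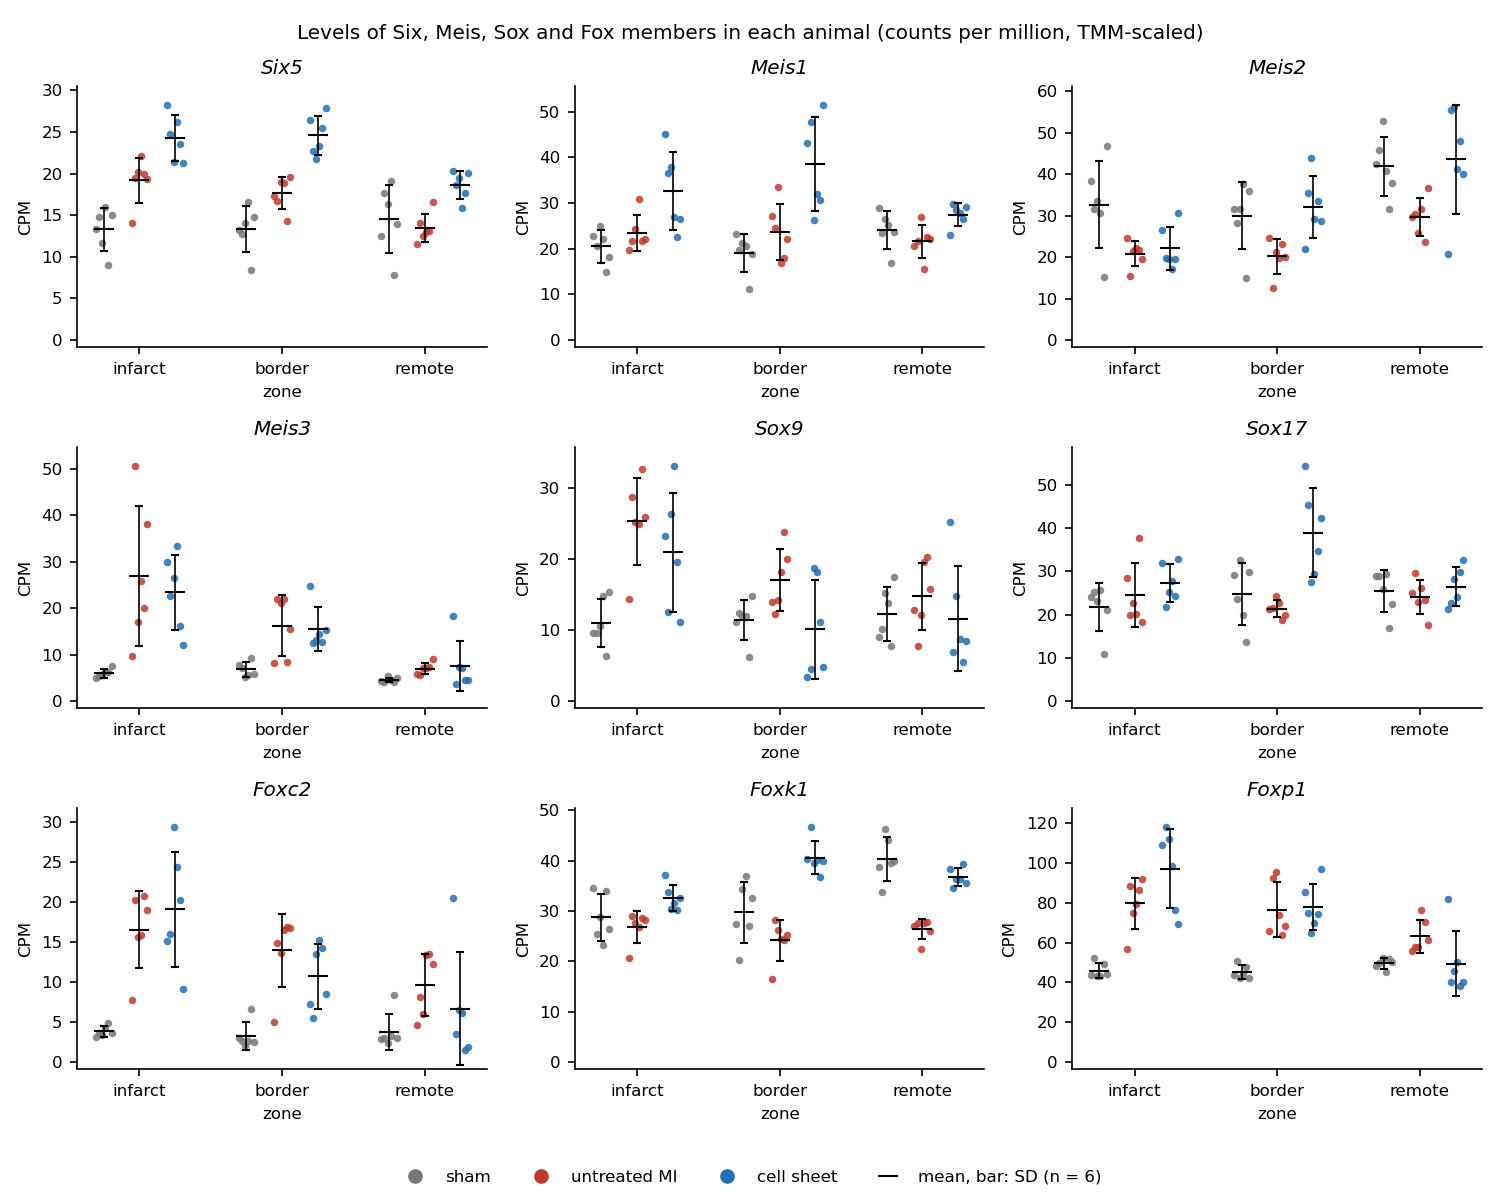
Level in CPM (vertical axis, linear) of 9 members of the families other than Hox in each animal by zone (horizontal axis) for sham (grey), untreated MI (red) and cell sheet-treated (blue) animals, with group mean and SD (n = 6). In the border zone the cell sheet animals of Six5, Sox17 and Foxk1 lie above all untreated MI animals.

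Among Sox genes, Sox9, the chondrogenic factor that is also active in cardiac fibroblasts, rose after MI. In the infarct zone it stood at 6.3, 10.1 and 15.3 CPM in sham and 14.4, 25.6 and 32.7 CPM in untreated MI. A single untreated MI animal, replicate 1 at 14.4 CPM, lay within the sham range. From infarct to remote zone, log2 fold changes were 1.19 ± 0.23, adjusted p = 0.002, then 0.58 ± 0.21, adjusted p = 0.045 and 0.26 ± 0.25, adjusted p = 0.469. Sox11, a progenitor factor of nerve and mesenchyme, went from 0, 0.246 and 0.462 CPM to 0.57, 0.724 and 1.35 CPM in the infarct zone (1.75 ± 0.53, adjusted p = 0.016). These animals did not overlap, but the default filter passed Sox11 there only through untreated MI animals, so that separation is no support. Sox11 also rose in the border zone (2.19 ± 0.52, adjusted p = 0.00765). Sox4 and Sox5 rose in the infarct zone (0.47 ± 0.15 and 0.59 ± 0.23). Sox6, which acts with Sox5 in cartilage and is also a striated muscle factor, fell in the infarct and border zones (-0.78 ± 0.26 and -0.95 ± 0.29). Sox7, an endothelial gene, fell there as well (-0.79 ± 0.31 and -0.68 ± 0.26). The Sox5 call was lost without any of 10 single animals and the Sox7 call in the infarct zone without any of 9. Of 12 textbook Sox9 targets, 7 tested, 4 rose in the infarct zone (22.7% of all genes rose), led by Col11a1 (7.33 ± 0.77, adjusted p = 6.54e-05), Matn4 (4.23 ± 0.40, adjusted p = 4.36e-05) and Comp (4.00 ± 0.62, adjusted p = 0.000573), and 1 fell. The list holds Sox5 and Sox6.

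Of the endothelial factors, Sox17 rose with the cell sheet in the border zone. It stood at 13.6, 26.3 and 32.6 CPM in sham, 18.7, 21.4 and 24.3 CPM in untreated MI and 27.6, 38.6 and 54.5 CPM with the cell sheet. No cell sheet animal fell into the untreated MI range. Its log2 fold change was 0.87 ± 0.16, adjusted p = 0.00321, and the call held without each single animal. The other endothelial genes of this group did not pass in the border zone (Sox18 0.10 ± 0.15 and Sox7 0.43 ± 0.18), and Sox18 stood at 51, 59.7 and 73 CPM and 44.2, 64 and 88.1 CPM. Of the 8 endothelial markers 1 rose and 1 fell. Sox12 fell after MI in the border zone (-0.50 ± 0.19, adjusted p = 0.0477), a call lost without any of 11 single animals, and rose with the cell sheet in the border zone (0.78 ± 0.20, adjusted p = 0.0198) and the remote zone (0.86 ± 0.20, adjusted p = 0.0147). It stood at 9.87, 14.7 and 16.5 CPM in untreated MI and 17, 23.1 and 40.5 CPM with the sheet in the border zone, with no overlap. Replicate 3 was the highest of both cell sheet groups, at 40.5 CPM in the border and 40.7 CPM in the remote zone. Sox10, a Schwann cell and neural crest factor, did not pass in any of the 9 comparisons, and ranged from 0.85 to 11.6 CPM in the same animal, cell sheet replicate 1, between its border and its remote sample.

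The Foxo genes, which are held out of the nucleus by insulin signalling and drive atrophy and stress genes, split after MI. Foxo1 stood at 42.1, 52.6 and 60 CPM in sham and 28.7, 37.8 and 40.8 CPM in untreated MI in the border zone, without overlap. It fell in all 3 zones (-0.54 ± 0.13, adjusted p = 0.00559, then -0.53 ± 0.12, adjusted p = 0.00662 and -0.49 ± 0.11, adjusted p = 0.00827). Foxo4 fell as well (-0.97, -0.87 and -0.69), as did Foxo6 (-1.63, -1.60 and -0.95). Foxo3 went the other way, from 42.1, 61.2 and 64.4 CPM to 68, 75.4 and 87 CPM in the border zone, without overlap (0.45 ± 0.12, adjusted p = 0.0115), and rose in the infarct zone (0.59 ± 0.12, adjusted p = 0.00285). It did not pass in the remote zone (0.01 ± 0.13, adjusted p = 0.976). With the cell sheet it stood at 87.8, 92.8 and 104 CPM in the border zone, above all untreated MI animals (0.30 ± 0.08, adjusted p = 0.0189). Foxo1 rose there too (0.44 ± 0.12, adjusted p = 0.0233), to 38, 48.7 and 58.5 CPM. Of 12 textbook Foxo targets, all tested, 1 rose and 5 fell after MI in the infarct zone, where 49.9% of all genes passed, so that the count stands near the share of all genes. Among those that fell were the atrophy ligase genes Trim63 (-2.14 ± 0.59) and Fbxo32 (-1.70 ± 0.39) and the metabolic genes Pdk4 (-2.43 ± 0.53) and Klf15 (-1.84 ± 0.47). Against untreated MI, 5 rose and 1 fell with the cell sheet in the remote zone (17.1% of all genes passed), among them Klf15 (1.16 ± 0.28) and Cat (1.27 ± 0.27), and 3 rose and 1 fell in the border zone (18% of all genes passed). Summed cardiomyocyte markers were 58970 to 74340 CPM in the sham infarct position without replicate 5 and fell there after MI in all 8 genes, and their part in the Foxo values was not tested.

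Foxk1, which controls myogenic progenitors and glycolysis, separated cell sheet from untreated MI animals in every zone. It stood at 20.6, 28 and 29.1 CPM in untreated MI and 30.2, 32.1 and 37.1 CPM with the cell sheet in infarct tissue, at 16.4, 24.9 and 28.3 and 36.9, 40 and 46.7 CPM in border tissue and at 22.4, 27.3 and 27.8 and 34.5, 36.3 and 39.3 CPM in remote tissue. No pair of groups overlapped, against 0.747%, 9.64% and 4.96% of all genes tested in the 3 zones. It rose in the border zone (0.75 ± 0.12, adjusted p = 0.00159) and the remote zone (0.46 ± 0.08, adjusted p = 0.00735) and did not pass in the infarct zone (0.28 ± 0.09, adjusted p = 0.497). Both calls held without each single animal. In the remote zone it was lower after MI than in sham (-0.61 ± 0.09, adjusted p = 0.00116), and the cell sheet and sham animals there overlapped (-0.16 ± 0.08, adjusted p = 0.557, with a 95% interval of -0.34 to 0.02). Foxj2 fell after MI in all 3 zones (-0.43 ± 0.11, -0.59 ± 0.14 and -0.66 ± 0.13) and rose with the cell sheet in the border zone (0.50 ± 0.12, adjusted p = 0.0148) and the remote zone (0.66 ± 0.16, adjusted p = 0.0167). Remote tissue held 67.6, 91 and 101 CPM in sham, 40.5, 56.5 and 69 CPM in untreated MI and 57.9, 91.7 and 114 CPM with the cell sheet. Foxn3 fell after MI in all 3 zones (-0.49 ± 0.10, -0.42 ± 0.09 and -0.40 ± 0.08), from 109, 127 and 152 CPM to 84.6, 93 and 102 CPM in the infarct zone without overlap.

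Of the mesodermal Fox genes, Foxc2, a lymphatic and mesenchymal factor, rose after MI in all zones. It stood at 3.16, 3.61 and 4.92 CPM in sham and 7.78, 17.4 and 20.8 CPM in untreated MI in the infarct zone, without overlap, and rose by 2.10 ± 0.23, adjusted p = 7.25e-05. In the border and remote zones it rose by 2.10 ± 0.35, adjusted p = 0.00143 and 1.33 ± 0.36, adjusted p = 0.0183. Untreated MI replicate 1 was the lowest of its group in each zone, and sham replicate 5 the highest of the sham group. Of the 5 lymphatic markers 4 rose and 1 fell in the infarct zone. The cell sheet did not move Foxc2 detectably (0.20 ± 0.28, -0.38 ± 0.32 and -0.53 ± 0.55), but its paralog Foxc1 fell in the remote zone (-0.49 ± 0.15, adjusted p = 0.0445), a call lost without any of 10 single animals. Foxs1, a pericyte gene, rose after MI in all zones (0.50 ± 0.12, 0.55 ± 0.13 and 0.62 ± 0.15). It was the only member that fell with the cell sheet in the border zone (-0.47 ± 0.14, adjusted p = 0.0339), from 21.1, 31.5 and 35.7 CPM to 17.2, 22.3 and 27 CPM, and that call was lost without any of 7 single animals. The call was also lost on library size without TMM factors and without a filter on low counts, where no member fell. Over the same border samples 5 of the 7 mural markers rose with the cell sheet, as given above. Foxf1, a lung and visceral mesoderm factor, rose with the cell sheet in the border zone, from 0.807, 1.41 and 1.62 CPM to 1.46, 2.92 and 5.47 CPM (1.34 ± 0.31, adjusted p = 0.0107). Its highest animal, replicate 4, is the one with lung markers, and without it the value was 1.15, adjusted p = 0.0211.

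Foxp1, an endothelial, myocardial and macrophage factor, rose after MI in all zones. It stood at 43.3, 43.9 and 52.3 CPM in sham and 56.6, 83.2 and 92.2 CPM in untreated MI in infarct tissue, at 42.2, 43.8 and 51 and 63.7, 71.3 and 95.8 CPM in border tissue and at 45.1, 50 and 52.4 and 55.6, 59.7 and 76.4 CPM in remote tissue. No pair of groups overlapped, as for 14.1%, 11.7% and 8.3% of all genes tested in the 3 zones. Log2 fold changes were 0.78 ± 0.11, adjusted p = 0.000416, then 0.77 ± 0.11, adjusted p = 0.000721 and 0.35 ± 0.09, adjusted p = 0.0146. Foxp4 rose in the infarct zone (0.83 ± 0.30, adjusted p = 0.0336), with sham replicate 5 at 37.7 CPM against at most 15.8 CPM in the other sham animals. Without that animal the value was 1.23, adjusted p = 6.92e-05, and the call was lost without any of 9 other single animals. Foxp2 fell in the infarct zone (-1.21 ± 0.37, adjusted p = 0.0181). Foxm1, a driver of mitosis, rose in the border and remote zones (1.21 ± 0.42, adjusted p = 0.0348 and 1.21 ± 0.34, adjusted p = 0.0212) and missed the threshold in the infarct zone (1.07 ± 0.43, adjusted p = 0.0529). Sham replicate 5 held 15, 16.9 and 14 CPM in the 3 zones against at most 5.05 CPM in the other sham libraries, and without it the infarct value was 1.70, adjusted p = 0.000156. Of 10 textbook Foxm1 targets, all tested, 4 rose in the infarct zone and 6 in each of the border and remote zones, and none fell, where 22.7%, 18.4% and 11.7% of all genes rose. Among them were Cdk1 (1.59 ± 0.50 in the infarct zone) and Birc5 (1.48 ± 0.49). With the cell sheet, neither Foxm1 (-0.78 ± 0.29 in the remote zone) nor any of the targets passed against untreated MI.

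Foxp3, the factor that defines regulatory T cells, was lower in untreated MI than in sham in every zone. It stood at 0.787, 1.91 and 9.04 CPM in sham and 0.0929, 0.35 and 0.529 CPM in untreated MI in infarct tissue, at 1.12, 1.77 and 10.4 and 0.119, 0.58 and 0.852 CPM in border tissue and at 1.38, 2.33 and 11.7 and 0.133, 0.685 and 1.76 CPM in remote tissue. The highest sham value in each zone was replicate 5, and the groups overlapped in the remote zone only. Lack of overlap was shown by 14.1% of all genes tested in infarct and 11.7% in border tissue. In infarct tissue the default filter passed Foxp3 only through its sham animals. The separation there was therefore fixed by the filter and is no support for the fall. Log2 fold changes were -3.19 ± 0.62, adjusted p = 0.0021, then -2.57 ± 0.67, adjusted p = 0.0111 and -2.24 ± 0.63, adjusted p = 0.021. Without sham replicate 5 they were -2.39, adjusted p = 0.000486, then -1.63, adjusted p = 0.00795 and -1.43, adjusted p = 0.0185. In the infarct zone the T cell gene Cd3e stood the other way round in the other 5 sham animals, at 0 to 0.525 CPM against 1.39 to 4.88 CPM in untreated MI. In the border zone sham replicate 6, at 1.97 CPM, lay within the untreated MI range of 1.01 to 7.35 CPM. In the remote zone it held 3.435 CPM, above the untreated MI range of 0.799 to 2.12 CPM. In infarct tissue without sham replicate 5, Cd3d, Cd4 and Cd8a also stood higher in untreated MI without overlap, and Cd3g did so with overlap. Cd28 stood lower, at 5.96 to 11.9 CPM in those sham animals and 3.82 to 8.36 CPM in untreated MI, which overlapped. The part of T cell number in the Foxp3 values was not tested. The cell sheet group stood at 0.399, 0.602 and 0.83, 0.397, 0.708 and 1.63 and 1.14, 1.23 and 1.68 CPM. In the border and remote zones, where it could be tested against untreated MI, Foxp3 did not pass (0.77 ± 0.49, adjusted p = 0.304 and 0.72 ± 0.43, adjusted p = 0.251).

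**Figure D5:**
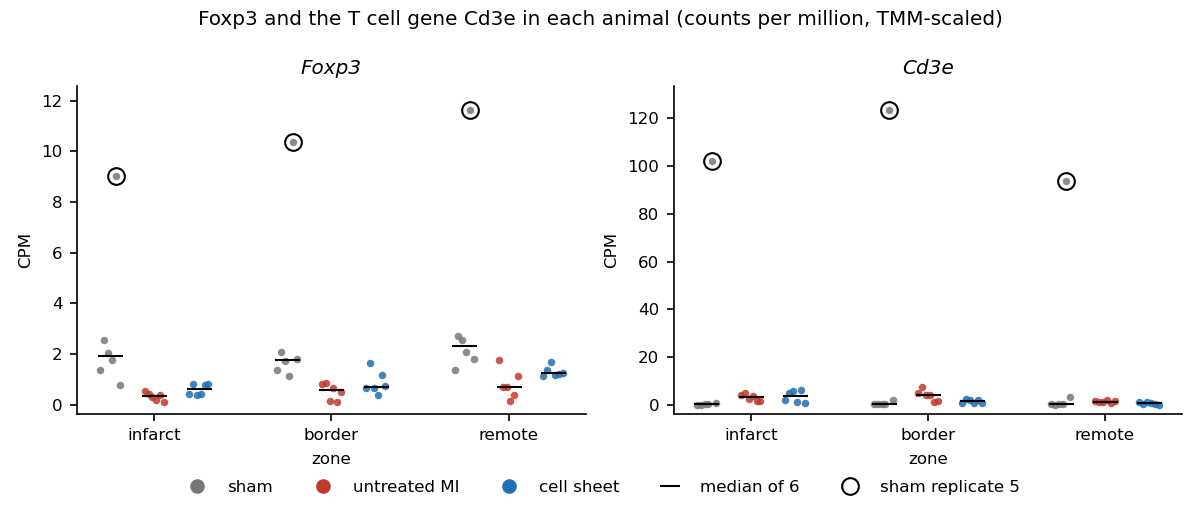
Level in CPM (vertical axis, linear) of Foxp3 and of the T cell gene Cd3e in each animal by zone (horizontal axis) for sham (grey), untreated MI (red) and cell sheet-treated (blue) animals; the dash is the median of 6 and a ring marks sham replicate 5. The ringed animal holds 9.04 to 11.7 CPM of Foxp3 and 93.9 to 124 CPM of Cd3e.

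Foxn1, the thymic epithelial gene whose mutation makes the strain athymic, was at 0 in all sham libraries. It had counts in 1 untreated MI library (infarct replicate 5, 0.0895 CPM) and in 6 cell sheet libraries, at most 0.175 CPM, 14 counts in all. It was not tested in any comparison.

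The untreated MI effect differed between zones for 10 of 56 members tested, a smaller share than that of all genes. In a test of the infarct minus the remote effect, with the animal as a block, 28.9% of all genes passed (13.6% higher) and 10 of 56 members tested were higher in the infarct zone, with none lower. Meis3 had the largest difference (1.37 ± 0.33, adjusted p = 0.00828), followed by Sox10 (0.98 ± 0.35, adjusted p = 0.0466), Sox9 (0.95 ± 0.24, adjusted p = 0.0115) and Foxp4 (0.82 ± 0.18, adjusted p = 0.00512). Also higher were Six5 (0.61 ± 0.16, adjusted p = 0.0114), Foxo3 (0.59 ± 0.15, adjusted p = 0.0116), Foxk1 (0.51 ± 0.15, adjusted p = 0.0198), Foxp1 (0.44 ± 0.12, adjusted p = 0.014) and Pbx2 (0.39 ± 0.11, adjusted p = 0.017). No Hox gene passed, with a lowest adjusted p of 0.137 over 11 tested. Sox10 passed here although neither of its separate effects did (0.50 ± 0.30 in the infarct and -0.41 ± 0.35 in the remote zone). Without the animal in the fit, 3 members passed.

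Of 12 retinoid genes, which act upstream of the Hox clusters, 9 were tested after MI, and 6 rose and 2 fell in the infarct zone, where 49.9% of all genes passed (22.7% higher). Among those that rose were the retinoic acid synthesis genes Aldh1a2 (1.71 ± 0.26, adjusted p = 0.000532) and Aldh1a3 (1.44 ± 0.37, adjusted p = 0.00765) and the binding protein gene Crabp2 (3.05 ± 0.48, adjusted p = 0.000634). In the border zone 6 rose and 2 fell (41.7% of all genes passed), and in the remote zone 5 rose (25.8% of all genes passed). Against untreated MI, 2 of 10 retinoid genes tested rose with the cell sheet in the border zone, where 18% of all genes passed (8.47% higher). They were the retinol receptor gene Stra6 (2.18 ± 0.56, adjusted p = 0.0184) and the retinoic acid hydroxylase gene Cyp26b1 (1.25 ± 0.39, adjusted p = 0.0434). Of 14 Polycomb, Trithorax and demethylase genes that regulate Hox clusters, all tested, 1 rose and 5 fell after MI in the infarct zone, 5 fell in each of the border and remote zones, counts to be read against 49.9%, 41.7% and 25.8% of all genes, and Cbx7 fell in all 3 (-1.14, -1.30 and -0.80). With the cell sheet Kmt2a (0.77 ± 0.10, adjusted p = 0.000861) and Ezh1 (0.34 ± 0.08, adjusted p = 0.0101) rose and Eed fell (-0.31 ± 0.09, adjusted p = 0.0256) in the border zone. These were 2 higher and 1 lower of 14 tested, near the 18% of all genes that passed there.

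All of these counts depend on scaling. On library size without TMM factors, the median log2 fold change of all genes for untreated MI against sham shifts by 0.26, 0.19 and 0.13 from infarct to remote zone, and the members that rose and fell in the infarct zone became 27 and 5, in the border zone 24 and 7 and in the remote zone 9 and 8. Changes are given relative to the TMM-scaled median, so small falls such as those of Foxj3 (-0.23 ± 0.09, which turned to 0.039 without TMM factors), Foxo1, Foxj2, Meis2, Six4, Sox6 and Sox7 in the infarct zone depend on that scaling.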

How the data were processed

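Poly(A) RNA of 54 libraries, 6 in each of 9 groups of treatment and zone, was analysed from the counts per gene that the authors deposited. Per the labels and the study's methods, reads were aligned with STAR to the rat genome (mRatBN7.2) and compared with DESeq2. The counting tool and its strand setting are not given in the sources used here. The 5 summary lines of each table, 17% to 42.8% of a library, were left out, and libraries then held 12699204 to 23397754 counts, so that genes with few counts carry wide errors.

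Groups came from the labels. Each comparison used the 12 libraries of its groups, TMM factors, the default expression filter and the quasi-likelihood test of edgeR 4.0.16 (R 4.3.3), with Benjamini-Hochberg adjustment over all genes and a threshold of 0.05. The SE is the log2 fold change divided by the square root of F. Differences between zones had the animal as a block. DESeq2 1.42.0, other filters and scalings, a replicate block, a fit of all 9 groups and fits without each animal were alternatives. The test was tested on simulated data. No libraries of a group agreed within sampling noise. The members and gene lists were chosen with earlier results of these data known. Values of every group are given for the members that passed without overlap, largest change first, and for textbook genes (20 members by that rule, besides some whose results are not reported here). Others were chosen after their values were seen. Promoters came from RefSeq (67 of 115 members matched).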

Additional observations from a re-analysis of the deposited data

Results flagged for a closer look

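Of 255 sets of a named member and a group, 37 held an animal that stood apart from the other 5 by Dixon's criterion, where chance gives about 1 in 20. Sham replicate 5 gave 16 of them, and it is also the animal with Cd3e and macrophage markers. In sham replicate 5, Foxc1 stood at 4.16 CPM in the border zone (others 7.94 to 10.8). Foxc2 stood at 6.65 CPM in the border zone (others 1.96 to 3.04) and 8.33 CPM in the remote zone (others 2.37 to 3.29). Foxm1 stood at 15.0 CPM in the infarct zone (others 2.56 to 4.84), 16.9 CPM in the border zone (others 2.25 to 4.67) and 14 CPM in the remote zone (others 3.23 to 5.05). Foxp3 stood at 10.4 CPM in the border zone (others 1.12 to 2.08) and 11.6 CPM in the remote zone (others 1.38 to 2.73). Hoxd9 stood at 0.0957 CPM in the border zone (others 0.316 to 0.435). Meis1 stood at 11.1 CPM in the border zone (others 18.9 to 23.2). Meis2 stood at 15.1 CPM in the border zone (others 28.1 to 37.7). Sox12 stood at 7.73 CPM in the infarct zone (others 16.2 to 20.4) and 11.1 CPM in the border zone (others 19.4 to 24.3). Sox17 stood at 10.8 CPM in the infarct zone (others 21.2 to 25.8). Sox18 stood at 30.9 CPM in the border zone (others 53.6 to 67.1). Sox9 stood at 6.27 CPM in the border zone (others 11.1 to 14.8).

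In untreated MI replicate 1, Foxc2 stood at 7.78 CPM in the infarct zone (others 15.6 to 20.8) and 5.02 CPM in the border zone (others 13.6 to 16.9). Foxk1 stood at 20.6 CPM in the infarct zone (others 26.8 to 29.1) and 16.4 CPM in the border zone (others 24.2 to 28.3). Foxo3 stood at 56.6 CPM in the infarct zone (others 82.6 to 103). Six5 stood at 14 CPM in the infarct zone (others 19.3 to 22.1). Sox9 stood at 14.4 CPM in the infarct zone (others 24.9 to 32.7). In cell sheet replicate 1, Foxp1 stood at 81.8 CPM in the remote zone (others 38.3 to 50.4). Meis2 stood at 20.6 CPM in the remote zone (others 39.9 to 56.2). Meis3 stood at 24.8 CPM in the border zone (others 12.4 to 15.4). In cell sheet replicate 3, Foxm1 stood at 6.4 CPM in the border zone (others 11.8 to 16.0). Hoxa2 stood at 0.388 CPM in the border zone (others 5.07 to 13.1). Sox12 stood at 40.5 CPM in the border zone (others 17.0 to 23.5). In untreated MI replicate 3, Foxk1 stood at 22.4 CPM in the remote zone (others 26.1 to 27.8). Hoxa2 stood at 0 CPM in the remote zone (others 0.531 to 1.06). In cell sheet replicate 6, Foxm1 stood at 5.73 CPM in the infarct zone (others 11 to 16.1). Foxs1 stood at 16.8 CPM in the infarct zone (others 24.5 to 29.3). In untreated MI replicate 5, Foxn1 stood at 0.0895 CPM in the infarct zone (others 0 to 0). With all others at 0 any count meets Dixon's criterion, so this flag was fixed in advance. In untreated MI replicate 4, Hoxd4 stood at 0 CPM in the remote zone (others 0.246 to 0.455). In cell sheet replicate 5, Hoxd9 stood at 0.632 CPM in the infarct zone (others 1.44 to 2.01). In untreated MI replicate 2, Meis2 stood at 12.5 CPM in the border zone (others 19.7 to 24.7).

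The untreated MI effect was higher in the infarct than in the remote zone, by the test of the difference in edgeR with the animal as a block, for Sox10 (0.98), Sox9 (0.95), Foxk1 (0.51), Foxo3 (0.59), Foxp1 (0.44), Foxp4 (0.82), Six5 (0.61), Meis3 (1.37) and Pbx2 (0.39), as log2 differences. In that test 28.9% of all genes passed and 13.6% were higher. The cause of these patterns was not tested.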

How the results depend on the processing

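The number of members passing for the cell sheet against untreated MI depended most on the processing. In the border zone it was 16, 27 with DESeq2, 4 with a replicate block, and 8 to 25 when 1 animal was left out. In the remote zone it was 5, 8 with DESeq2, 0 with the replicate block, and 4 to 21 without 1 animal. In the infarct zone it was 0 under every alternative run. For untreated MI against sham, leaving out 1 animal gave 24 to 37 members in the infarct zone, 21 to 36 in the border zone and 14 to 22 in the remote zone. For the cell sheet against sham it gave 27 to 38, 28 to 41 and 0. The cell sheet effect in the border minus that in the infarct zone gave 0 members, 1 with DESeq2, and border minus remote gave 0, 3 with DESeq2, and both stayed at 0 when 1 animal was left out. The infarct minus remote effect of untreated MI gave 10, 8 to 11 without 1 animal, and 3 without the animal in the fit. Foxj3 in untreated MI against sham in the infarct zone turned from -0.23 to 0.0391 without TMM factors. The replicate numbers did not pair the libraries: correlations of same-numbered deviations ran from −0.684 to 0.554, and in 0 of 9 comparisons did all 6 pairs exceed 0.1. Among those that passed in the border zone with the replicate block were Foxk1, Six5 and Sox17. The cause of these shifts was not tested. Genes with few counts limit what could be seen: 50 of 115 members could not be tested in any comparison.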
